A study of Mus musculus with 2 samples.

Results

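The transcripts examined were those of 9 mouse genes: Il6ra, Il6st, Stat3, Dapl1, Igfbp4, Nsg2, Ms4a4c, Pou6f1 and Cd55. They were grouped as the interleukin-6 (IL-6) receptor, its transducer and other transcripts associated with naive T cells. Every non-control probe named for one of them, by its symbol or an older alias, on either of 2 arrays was used. This gave 15 probes by name and 1 more, for Dapl1, by its accession, 16 of the 41174 probes of the array design. An alias that the RefSeq gene table also gives to another gene was not used, so 3 probes named Emb or tied to that name, which belongs to embigin, were not counted for Pou6f1.

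The study compared CD8+CD122+ with CD8+CD122- cells, both sorted from the spleens of C57BL/6 mice, an inbred strain with no genetic modification or treatment given in the labels. Their messenger RNA was amplified and the pair was hybridised to 2 two-colour Agilent arrays. CD8+CD122+ carried Cy5 and CD8+CD122- carried Cy3 on array 1, and the dyes were exchanged on array 2, the second trial. Whether the second trial used new mice, how many mice were pooled, and their age and sex are not given in the sources used here. Every SD below therefore measures only the spread between 2 arrays. Each p-value rests on those 2 arrays as well, with a variance drawn in part from the other probes.

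CD122 is the beta chain of the interleukin-2 and interleukin-15 receptors, and in mice CD122 on CD8 T cells marks memory-like and regulatory cells, whereas most CD8 T cells without it are naive. IL-6 binds its receptor alpha chain, encoded by Il6ra, and the complex engages gp130, encoded by Il6st, which is shared by nearly all cytokines of the family. Receptor-bound JAK kinases then phosphorylate STAT3, which enters the nucleus, and the feedback inhibitor SOCS3 acts on the receptor complex. Naive T cells express both receptor chains and lose part of them after activation.

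Ratios are given as log2 of CD8+CD122+ over CD8+CD122-, so a value of 1 is a doubling and a negative value is a lower signal in CD8+CD122+ cells. Signals are normalised spot brightness on a linear scale and were compared only between populations for the same probe. A probe was kept if the same population was well above background on both arrays, which left 15 of the 16 probes and 30794 of all probes. Of the kept probes, 6 were negative on both arrays, where 25.6% of all kept probes were, and 4 were positive on both arrays, where 27.8% of all were. The other 5 had opposite signs on the 2 arrays. With the dyes exchanged, an opposite sign means that the same dye was brighter on both arrays. For such probes a dye effect and a change between the trials cannot be told apart.

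None of the 15 probes was at least 2-fold lower on both arrays (0.0812% of all kept probes were), and none was at least 2-fold higher on both (0.253% of all). At 1.5-fold, 1 probe was lower on both arrays, that of Dapl1, against 0.296% of all, and 1 was higher on both, a Pou6f1 probe, against 0.63% of all. No probe passed limma's moderated test after Benjamini-Hochberg adjustment over all kept probes, and the share of all probes called was also 0%, the smallest adjusted p being 0.146. At an unadjusted p under 0.05, 5 of the 15 probes passed, those of Il6st, Dapl1 and Igfbp4 and 1 of Pou6f1, against 6.12% of all kept probes. The Igfbp4 probe A_51_P398971 was kept through CD8+CD122- cells alone, so its direction and its p support nothing. Without it 14 probes were left, each above background in all 4 channels of the 2 arrays, of which 5 were negative on both arrays and 4 had an unadjusted p under 0.05. The median log2 ratio of the 15 probes was 0.010 on array 1 and -0.13 on array 2, beside 0.0048 and 0.00079 over all kept probes.

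**Figure D1:**
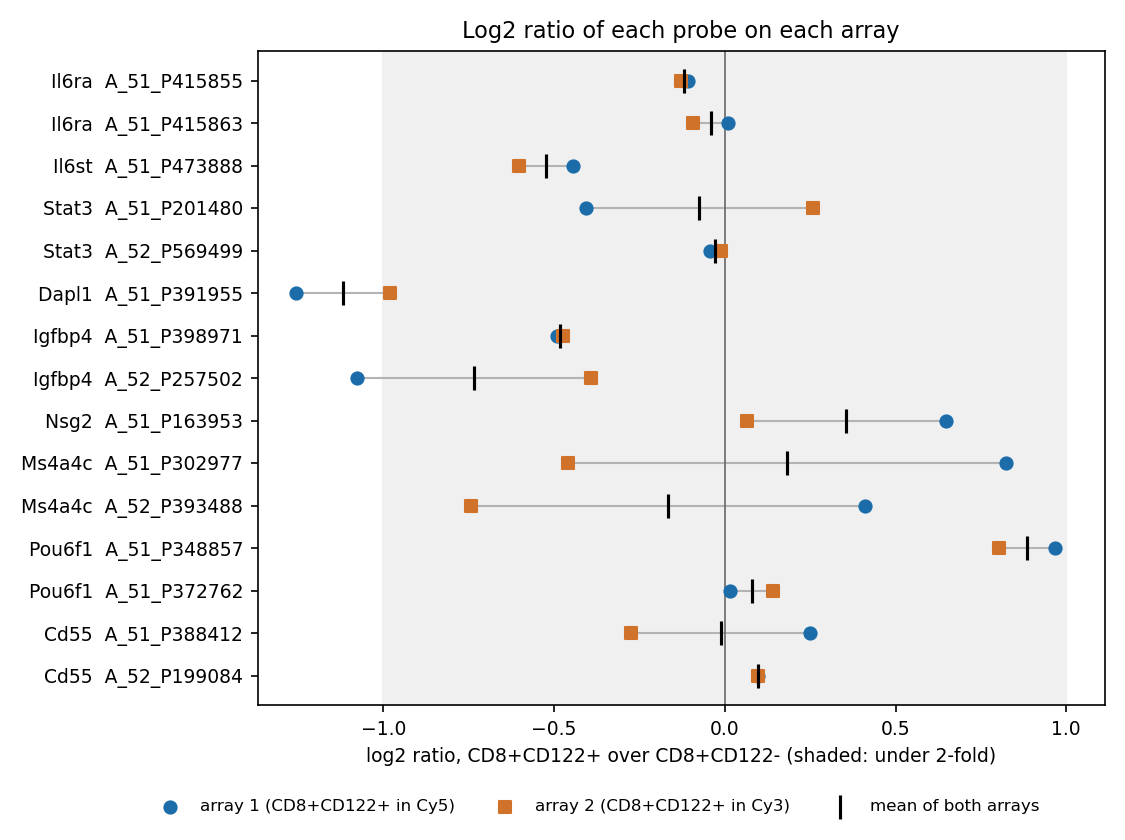
Log2 ratio of CD8+CD122+ over CD8+CD122- (horizontal axis) for each of the 15 kept probes (rows), with circles for array 1, squares for array 2 and a tick at the mean. The Dapl1 probe lies furthest left at -1.26 and -0.98, the Pou6f1 probe A_51_P348857 furthest right by its mean of 0.88, and the 2 Ms4a4c probes have array values on opposite sides of 0.

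Below are the RefSeq promoters of the 3 genes with the lowest ratios and the gene with the highest, from 250 bases before to 50 after the gene's start in the GRCm38.p6 table, printed from 5′ to 3′ on the gene's strand. They are shown because these genes carry the differences described next. Capitals mark TATAAA and GGGCGG, or its reverse complement CCGCCC, searched on both strands. Neither motif overlaps the other, and both were chosen after the promoters were read. Dapl1 lies on the plus strand at chr2:59484403-59484702, Igfbp4 on the plus strand at chr11:99040994-99041293, Il6st on the plus strand at chr13:112463820-112464119 and Pou6f1 on the minus strand at chr15:100599935-100600234.
Dapl1: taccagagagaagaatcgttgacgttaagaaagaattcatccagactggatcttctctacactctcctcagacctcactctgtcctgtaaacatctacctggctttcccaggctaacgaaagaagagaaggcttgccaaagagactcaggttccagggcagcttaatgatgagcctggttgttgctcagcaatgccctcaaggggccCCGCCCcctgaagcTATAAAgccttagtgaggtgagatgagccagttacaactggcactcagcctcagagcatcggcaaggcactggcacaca
Igfbp4: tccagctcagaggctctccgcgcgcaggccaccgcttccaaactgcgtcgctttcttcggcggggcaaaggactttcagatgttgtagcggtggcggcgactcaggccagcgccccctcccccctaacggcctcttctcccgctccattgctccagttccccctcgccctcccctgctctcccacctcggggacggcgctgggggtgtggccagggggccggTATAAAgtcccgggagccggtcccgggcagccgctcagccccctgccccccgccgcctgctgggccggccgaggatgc
Il6st: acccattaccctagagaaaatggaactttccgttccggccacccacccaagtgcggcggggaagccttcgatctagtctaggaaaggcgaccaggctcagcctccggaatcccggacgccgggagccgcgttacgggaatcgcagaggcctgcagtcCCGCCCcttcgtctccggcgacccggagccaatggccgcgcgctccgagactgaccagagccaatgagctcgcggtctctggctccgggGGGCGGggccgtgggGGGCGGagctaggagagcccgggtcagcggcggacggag
Pou6f1: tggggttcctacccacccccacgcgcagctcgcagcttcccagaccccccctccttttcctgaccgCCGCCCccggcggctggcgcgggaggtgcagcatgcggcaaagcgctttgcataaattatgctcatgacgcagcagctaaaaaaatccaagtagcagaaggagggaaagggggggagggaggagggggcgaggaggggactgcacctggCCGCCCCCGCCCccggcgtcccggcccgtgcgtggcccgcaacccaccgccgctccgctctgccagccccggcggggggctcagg

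TATAAA lies 29 bases before the start of Dapl1 and 28 bases before the start of Igfbp4. It was in no promoter of the other 7 genes and in 13.6% of the 32851 promoters in the table. GGGCGG on either strand was in the promoters of 5 of the 9 genes (Il6st, Stat3, Dapl1, Pou6f1 and Cd55) and in 35.7% of all promoters, with 3 matches in Il6st and 3 in Pou6f1. The STAT binding motif TTCNNNGAA, which reads the same on both strands, was in 8.3% of all promoters and, among the 9 genes, only in Nsg2. The Nsg2 match, TTCTCAGAA, starts 39 bases after the gene's first base in one of its 2 overlapping promoter windows and 242 bases before it in the other. These matches describe the searched windows, and neither binding nor a link between a motif and the ratios was tested.

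Il6ra, the chain that binds IL-6, had ratios near 0 on both of its probes. On A_51_P415855 the signal was 141 and 263 in CD8+CD122+ cells on arrays 1 and 2, against 152 and 287 in CD8+CD122- cells. The log2 ratios of -0.11 and -0.13 gave a mean of -0.12 ± 0.013 (SD, n = 2 arrays), which put the probe at percentile 17.8 of all kept probes, with an adjusted p of 0.880 by limma. The 2 arrays lay close together here, but with median centring in place of loess the signs parted, at 0.045 on array 1 and -0.40 on array 2. Unlike loess, median centring leaves in place a dye bias that varies with brightness. Here and below, signs that part under it therefore do not decide a direction.

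The other Il6ra probe, A_51_P415863, lies 9.75 kb closer to the 5′ end of the gene by the positions in the scanner file. Its signal was 103 and 136 in CD8+CD122+ cells, against 102 and 145 in CD8+CD122- cells. Its log2 ratios of 0.010 and -0.092 (mean -0.041 ± 0.073, SD, n = 2) had opposite signs, and limma's adjusted p was 0.943. Neither Il6ra probe passed the test, and the difference exceeded the spread between arrays on the first probe only, where it was small.

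Il6st, the signal-transducing chain gp130, was lower in CD8+CD122+ cells on both arrays. Its probe A_51_P473888 carries the gene's name on array 2, and array 1 lists a complementary DNA accession for it. The signal was 259 and 329 in CD8+CD122+ cells, against 352 and 499 in CD8+CD122- cells, so on each array the CD8+CD122+ value lay below its partner. The log2 ratios were -0.44 and -0.60, a mean of -0.52 ± 0.11 (SD, n = 2), or 1.44-fold lower, at percentile 1.34 of all kept probes.

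Limma's adjusted p for Il6st was 0.620, so the difference did not pass the test. The mean stayed between -0.62 and -0.49 over the main setting and the alternative ways of processing both arrays, and both arrays were negative in each of them. Of these ways, the value table repeats the processed signals and keeping outlier spots changed no value here, so neither adds to this. With median centring the arrays lay further apart, at -0.19 and -0.93.

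Stat3, the transcription factor activated downstream of gp130, gave ratios of opposite sign. On A_51_P201480 the signal was 907 and 1288 in CD8+CD122+ cells, against 1203 and 1077 in CD8+CD122- cells. CD8+CD122+ cells were thus lower on array 1 (log2 ratio -0.41) and higher on array 2 (0.26), with a mean of -0.075 ± 0.47 (SD, n = 2) and a limma adjusted p of 0.969. The second probe, A_52_P569499, lies 3.14 kb closer to the 3′ end and is named Stat3 on array 1 and 2810474O19Rik on array 2, so its assignment is uncertain. Its log2 ratios were -0.042 and -0.012, at signals of 91.1 and 103 in CD8+CD122+ cells against 93.8 and 104 in CD8+CD122- cells.

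**Figure D2:**
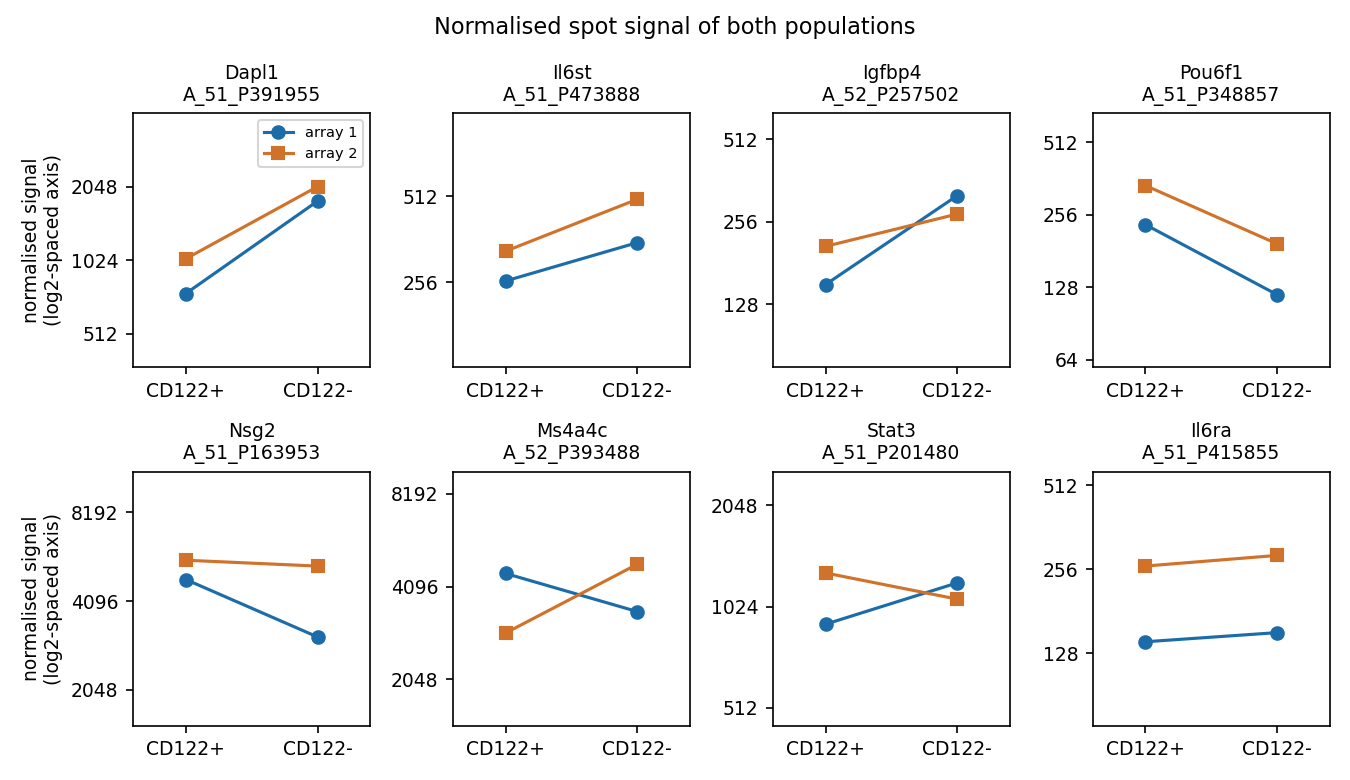
Normalised signal (vertical axis, spaced by log2) in CD8+CD122+ cells (left of each panel) and CD8+CD122- cells (right) for 8 probes, with a line joining the 2 populations of an array. Both lines slope the same way for Dapl1, Il6st, Igfbp4, Pou6f1, Nsg2 and Il6ra, and the lines cross for Ms4a4c (4518 against 3398 on array 1, 2896 against 4843 on array 2) and Stat3.

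Dapl1 had the lowest ratio of the 9 genes. It encodes a small protein related to death-associated protein (Dap), and its transcript is used as a marker of naive T cells. Its probe A_51_P391955 gave 748 and 1038 in CD8+CD122+ cells, against 1786 and 2047 in CD8+CD122- cells. On each array the CD8+CD122+ signal was the lower one.

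The Dapl1 log2 ratios were -1.26 and -0.98, a mean of -1.12 ± 0.20 (SD, n = 2), or 2.17-fold lower, at percentile 0.136 of all kept probes. Array 2 lay just inside the 2-fold limit, which is why the probe was not counted at 2-fold. Limma's adjusted p was 0.457. In sorted bulk cells, fewer cells with a transcript and less transcript per cell cannot be told apart, for Dapl1 or for any other gene here. Over the alternative settings the mean ran from -1.16 to -1.10, and both arrays were negative in each.

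A second probe, A_52_P164928, carries a Dapl1 alias (2310032F03Rik) on array 2 only and lies 6.68 Mb away on the same chromosome in the file's positions. It was not kept, because each population was well above background on 1 array only. Its signal was 68.9 and 64.2 in CD8+CD122+ cells, against 66.8 and 70.8 in CD8+CD122- cells, and its assignment to Dapl1 is uncertain.

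Igfbp4, a secreted protein that binds insulin-like growth factors, was lower in CD8+CD122+ cells on both arrays by the probe that was measured in both populations. On A_52_P257502, that probe, which lies 3.74 kb closer to the 3′ end, the signal was 151 and 208 in CD8+CD122+ cells, against 319 and 273 in CD8+CD122- cells. The log2 ratios of -1.08 and -0.39 differed in size between the arrays, with a mean of -0.73 ± 0.48 (SD, n = 2), or 1.66-fold lower, and a limma adjusted p of 0.791. This probe stood at percentile 0.52 of all kept probes.

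On the other Igfbp4 probe, A_51_P398971, CD8+CD122+ cells were not well above background on either array, whereas CD8+CD122- cells were on both. The signal was 58.2 and 60.3 in CD8+CD122+ cells, against 81.9 and 83.7 in CD8+CD122- cells. Because the lower population had no measured level, the difference was taken against a floor. By that floor CD8+CD122+ cells were 1.38-fold lower, beside a log2 ratio of -0.48 ± 0.013 (SD, n = 2) and a limma adjusted p of 0.582. The floor takes as the level of CD8+CD122+ cells, on each array, the dimmest spot that passed the scanner's background test, or this probe if it was brighter. The brightness of the 2 arrays was first matched by quantiles. This floor lies near the probe's own signal and is not its detection limit, so the fold is no strict bound.

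The filter kept this probe through CD8+CD122- cells, so its direction is no second support for the gene. Its ratio depended on how background was handled. The deposited processed signals gave log2 ratios of -2.03 and -2.15 with deposited errors of 0.50 and 1.17 on the log2 scale, against the same unmeasured level, so no fold is drawn from them. Without background subtraction the mean was -0.35. The log2 ratios of A_52_P257502 were negative on both arrays in the alternative settings, with means from -0.97 to -0.67.

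Nsg2, which encodes an endosomal protein known from neurons, was higher in CD8+CD122+ cells on array 1 and almost level on array 2. Its probe A_51_P163953 gave 4850 and 5640 in CD8+CD122+ cells, against 3098 and 5388 in CD8+CD122- cells. The log2 ratios were 0.65 and 0.066, a mean of 0.36 ± 0.41 (SD, n = 2), at percentile 97.0 and with a limma adjusted p of 0.880. The sign was positive on both arrays by loess, and with median centring it parted to 1.16 and -0.40. As a naive T cell marker Nsg2 would be lower in CD8+CD122+ cells, and neither array showed that by the main processing.

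Ms4a4c, a membrane protein of the MS4A family expressed by lymphocytes, had opposite signs on the 2 arrays with both of its probes. A_52_P393488 gave 4518 and 2896 in CD8+CD122+ cells, against 3398 and 4843 in CD8+CD122- cells. Its log2 ratios were 0.41 and -0.74, a mean of -0.17 ± 0.82 (SD, n = 2), with a limma adjusted p of 0.958. A_51_P302977, named for the gene on array 2 only, gave 380 and 290 in CD8+CD122+ cells, against 215 and 399 in CD8+CD122- cells. Its log2 ratios were 0.82 and -0.46 (mean 0.18 ± 0.91, SD, n = 2), so CD8+CD122+ cells were the higher ones on array 1 and the lower ones on array 2 for both probes. For both, the population in Cy5 was thus the brighter one on each array, and a part of the dye was not tested.

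Pou6f1, a POU-domain transcription factor known from the developing brain, was higher in CD8+CD122+ cells on 1 of its probes. A_51_P348857 gave 232 and 338 in CD8+CD122+ cells, against 119 and 194 in CD8+CD122- cells. On each array the CD8+CD122+ signal was the higher one. The log2 ratios were 0.97 and 0.80, a mean of 0.88 ± 0.11 (SD, n = 2), or 1.85-fold higher, at percentile 99.4. Limma's adjusted p was 0.457, and both arrays were positive in the alternative settings, whose means ran from 0.77 to 1.25.

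The second Pou6f1 probe, A_51_P372762, lies 8.51 kb closer to the 5′ end and covers 659 bases of the chromosome, more than the 60 of the first probe, so it crosses an intron. Its signal was 68.1 and 83.5 in CD8+CD122+ cells, against 67.4 and 75.7 in CD8+CD122- cells. The log2 ratios were 0.016 and 0.14, a mean of 0.078 ± 0.089 (SD, n = 2), with a limma adjusted p of 0.920. The 2 probes of the gene thus gave different answers, and averaging them gave a log2 ratio of 0.48. Pou6f1 went against the naive label, being higher in CD8+CD122+ cells by one probe and near level by the other.

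Cd55, the decay-accelerating factor that protects cells from complement, did not separate the populations. A_51_P388412, which covers 7987 bases of the chromosome and so crosses an intron, gave 193 and 232 in CD8+CD122+ cells, against 162 and 281 in CD8+CD122- cells. The log2 ratios were 0.25 and -0.27, a mean of -0.012 ± 0.37 (SD, n = 2), with a limma adjusted p of 0.992. A_52_P199084 gave 81.7 and 120 in CD8+CD122+ cells, against 76.4 and 112 in CD8+CD122- cells, log2 ratios of 0.097 and 0.099. Those 2 ratios were nearly equal, but small, and limma's adjusted p was 0.885.

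**Figure D3:**
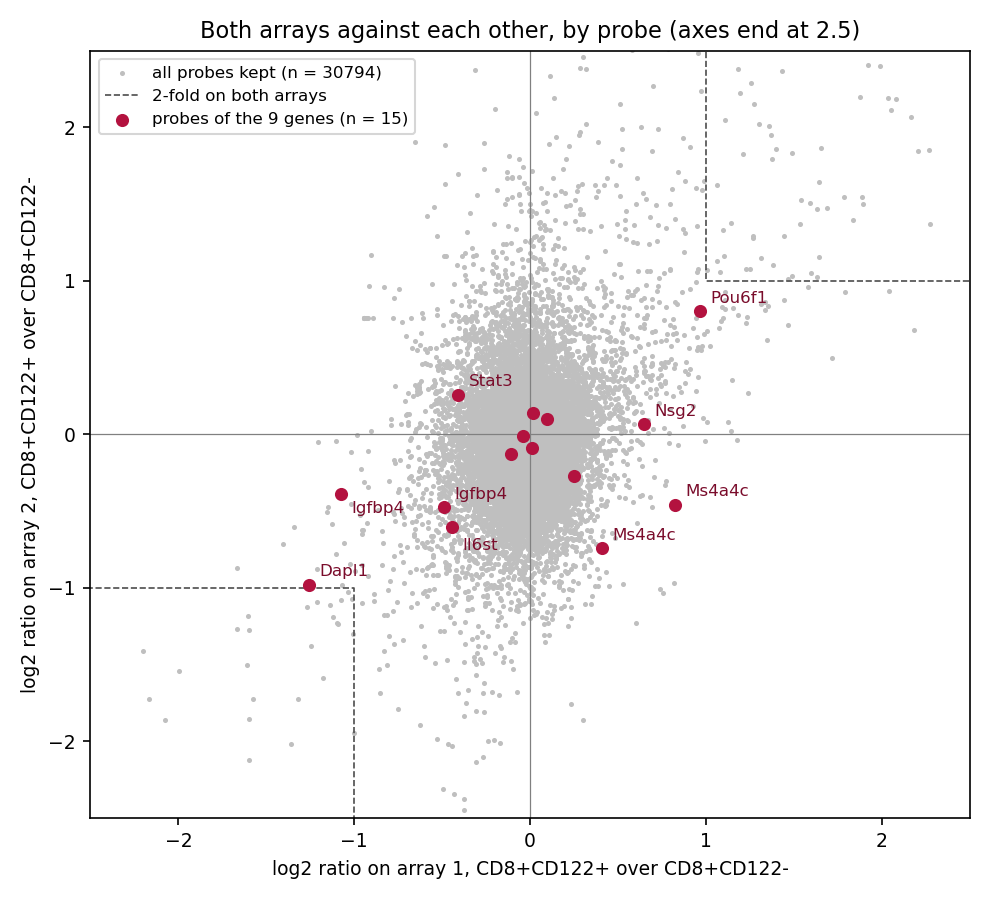
Log2 ratio on array 1 (horizontal) against array 2 (vertical) for the 30794 kept probes (grey) and the 15 probes of the 9 genes (red), with dashed corners at 2-fold on both arrays. Dapl1 sits at the edge of the lower left corner, Pou6f1 outside the upper right corner, and both Ms4a4c probes in the lower right quadrant, where the arrays disagree.

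Among the 9 genes, the direction of a naive marker, lower in CD8+CD122+ cells on both arrays, was seen for Dapl1, Igfbp4 and Il6st. The mean of the Igfbp4 probe measured in both populations was further from 0 than that of Il6st. On array 2 this order was reversed, at -0.39 for Igfbp4 and -0.60 for Il6st. The values went against the direction of a naive marker for the 3′ Pou6f1 probe and for Nsg2 on array 1. For Il6ra, Stat3, Ms4a4c and Cd55 the ratios were near 0 or differed in sign between arrays.

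The wider lists place these values beside their pathways and families, by gene on its brightest kept probe, with the highest and lowest genes of a list taken by the mean of both arrays. Over all 21959 genes tested, 0.105% were at least 2-fold lower on both arrays and 0.31% at least 2-fold higher, and 24.1% were negative and 29.2% positive on both arrays. The median log2 ratio over all genes was 0.0070.

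Of 17 other ligands, receptors and shedding enzymes of the IL-6 family, none was 2-fold different on both arrays, 4 were positive on both, 2 were negative on both and 11 had opposite signs. The 2 negative genes were both receptor chains that pair with gp130: Il27ra, for interleukin-27 (-0.40 and -0.56), and Il11ra1, for interleukin-11 (-0.21 and -0.43). With median centring Il27ra stayed negative on both arrays (-0.14 and -0.89) and Il11ra1 did not (0.014 and -0.78). Of the genes positive on both arrays, the ligand Osm, oncostatin M, had the highest mean, from 0.31 and 0.15, followed by Cntf, ciliary neurotrophic factor, from 0.098 and 0.19, and on array 2 both were negative with median centring. Adam10 (0.072 and -0.26) and Adam17 (-0.20 and 0.13), proteases that can shed the IL-6 receptor, had opposite signs on the 2 arrays.

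Of 22 JAK and STAT signalling genes, none was 2-fold different on both arrays, 8 were positive on both and 7 negative on both. Of the kinases that act on gp130, Jak1 had log2 ratios of 0.16 and 0.27, Jak2 -0.12 and 0.69, and Tyk2 -0.10 and -0.13. With median centring the 2 arrays had opposite signs for Jak1 (0.67 and -0.19) and Tyk2 (0.065 and -0.37). Socs3, the feedback inhibitor of gp130 signalling and a STAT3 target, gave 3502 and 5531 in CD8+CD122+ cells, against 2122 and 2901 in CD8+CD122- cells. Its log2 ratios were 0.72 and 0.93 (mean 0.83 ± 0.15, SD, n = 2), and they remained positive with median centring (1.19 and 0.47).

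Cish, an inhibitor of cytokine signalling induced through STAT5, had log2 ratios of 0.58 and 2.51. Stat6, the mediator of interleukin-4 signals, had log2 ratios of -0.30 and -0.74. It was negative on both arrays with median centring as well, at -0.018 on array 1 and -1.06 on array 2.

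Of 22 known STAT3 target genes, 21 were tested, 1 was at least 2-fold higher on both arrays and none was 2-fold lower, 9 were positive and 4 negative on both, and the median was 0.13. The gene past 2-fold was Nfil3, a basic leucine zipper transcription factor, with 978 and 1629 in CD8+CD122+ cells, against 453 and 395 in CD8+CD122- cells. Its log2 ratios were 1.11 and 2.05 (mean 1.58 ± 0.66, SD, n = 2), with a limma adjusted p of 0.671, and its other probe gave 0.84 and 1.71. The list mixes genes that many pathways control, and the part of STAT3 in these values was not tested.

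Of 27 other naive T cell markers, 26 were tested, 3 were at least 2-fold lower on both arrays, none was 2-fold higher, 14 were negative on both arrays and 3 positive. The median was -0.18. The 3 genes were Itgae, the alpha chain of an integrin that binds E-cadherin (-2.08 and -1.86), Ccr9, a gut-homing chemokine receptor (-1.995 and -1.541), and Ldhb, a lactate dehydrogenase subunit (-1.04 and -1.03). The other Ldhb probe gave 0.13 and 0.12, so that gene rests on 1 of 2 probes. The other Itgae probe was also lower on both arrays, at -0.96 and -1.10, but inside the 2-fold limit on array 1. With median centring 12 of the 26 genes were negative on both arrays and 2 of the 3, Itgae and Ccr9, were past 2-fold.

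**Figure D4:**
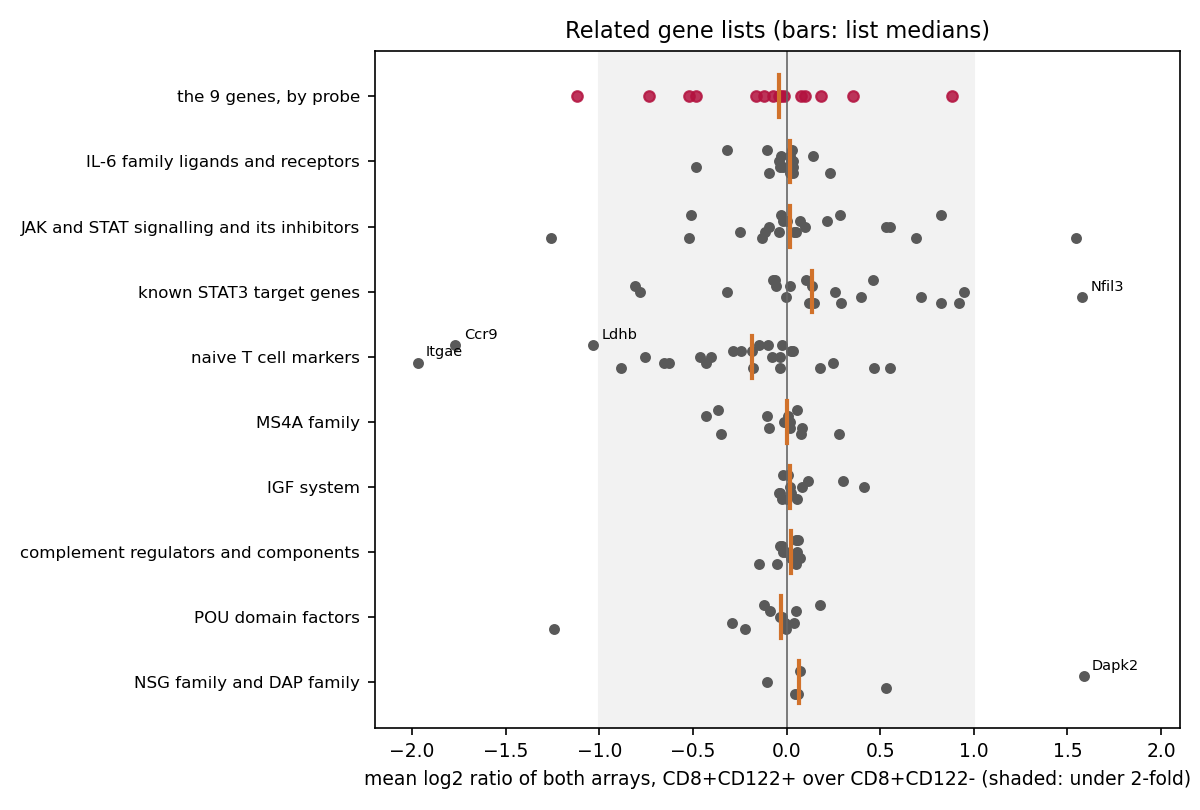
Mean log2 ratio of both arrays (horizontal axis) for the 15 probes of the 9 genes (top row, red) and for the tested genes of 9 related lists (grey, a row each), with a bar at each median and shading under 2-fold. The naive T cell marker list has its median at -0.18 and the STAT3 target list at 0.13, and genes past 2-fold on both arrays are named.

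In the families of the other members few genes differed. Of 17 MS4A family genes 14 were tested, none was 2-fold different on both arrays and 8 had opposite signs. Ms4a4b, the neighbour and close relative of Ms4a4c in T cells, gave 12391 and 8264 in CD8+CD122+ cells, against 9727 and 17136 in CD8+CD122- cells, log2 ratios of 0.35 and -1.05. It thus had the order of Ms4a4c, higher on array 1 and lower on array 2, and whether probes of such close relatives detect each other's transcripts was not tested. Ms4a6b (-0.085 and -0.77) and Ms4a6c (-0.20 and -0.54) were negative on both arrays, and with median centring Ms4a6b was 0.46 on array 1. Ms4a6d (0.52 and 0.040) and Ms4a7 (0.032 and 0.13) were positive on both, although Ms4a6d was -0.038 on array 2 with median centring.

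Of 17 genes of the insulin-like growth factor system 13 were tested and none was 2-fold different on both arrays. Igf1r, the receptor for the ligands that Igfbp4 binds, had log2 ratios of -0.15 and 0.066. Stc2, an inhibitor of a protease that cleaves Igfbp4, was not well above background in CD8+CD122- cells on either array. In CD8+CD122+ cells it exceeded a floor set in the same way as for Igfbp4 by 1.32-fold. Igf2r, the receptor that clears insulin-like growth factor 2, followed with 0.43 and 0.18, and Igfbp3 (-0.030 and -0.042) and Pappa2 (-0.0033 and -0.047) were the lowest of those with 1 sign. With median centring the arrays parted in sign for Igf2r (0.75 and -0.21) and Igfbp3 (0.043 and -0.055).

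Of 15 complement regulators and components 13 were tested, none was 2-fold different on both arrays and 9 had opposite signs. Cd55b, the second mouse gene for the decay-accelerating factor, had log2 ratios of 0.16 and -0.056, and Cd59a, an inhibitor of the membrane attack complex, had 0.12 and -0.067. Cr2 (0.080 and 0.060) and Clu (0.020 and 0.11) were the highest of those with 1 sign, and Cr1l, a complement regulator of the mouse, the lowest (-0.11 and -0.18). None of these 3 kept 1 sign on both arrays with median centring.

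Of 14 POU domain genes 12 were tested and none was 2-fold different on both arrays. Pou2f1, a widely expressed relative of Pou6f1, had log2 ratios of -0.70 and 0.13. Pou5f1, the pluripotency factor, gave 80.1 and 102 in CD8+CD122+ cells, against 110 and 413 in CD8+CD122- cells, log2 ratios of -0.46 and -2.02, and Pou2af1, a coactivator best known from B cells, gave -0.074 and -0.36. Pou3f1 (0.21 and 0.14) and Pou2f3 (0.070 and 0.028) were the highest of those with 1 sign. With median centring Pou5f1 and Pou2f3 kept 1 sign on both arrays, and Pou2af1 (0.11 and -0.63) and Pou3f1 (0.45 and -0.18) did not.

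Of 6 relatives of Nsg2 and Dapl1 all were tested, 1 was at least 2-fold higher on both arrays and none 2-fold lower. That gene was Dapk2, a death-associated protein kinase, with 185 and 222 in CD8+CD122+ cells, against 71.1 and 63.8 in CD8+CD122- cells, and CD8+CD122- cells were well above background for it on only 1 of the 2 arrays. Of its log2 ratios of 1.38 and 1.80, 1 is therefore against a level not well above background, and the count at 2-fold rests on it. Nsg1, the nearest relative of Nsg2, had 0.057 and 0.069.

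**Figure D5:**
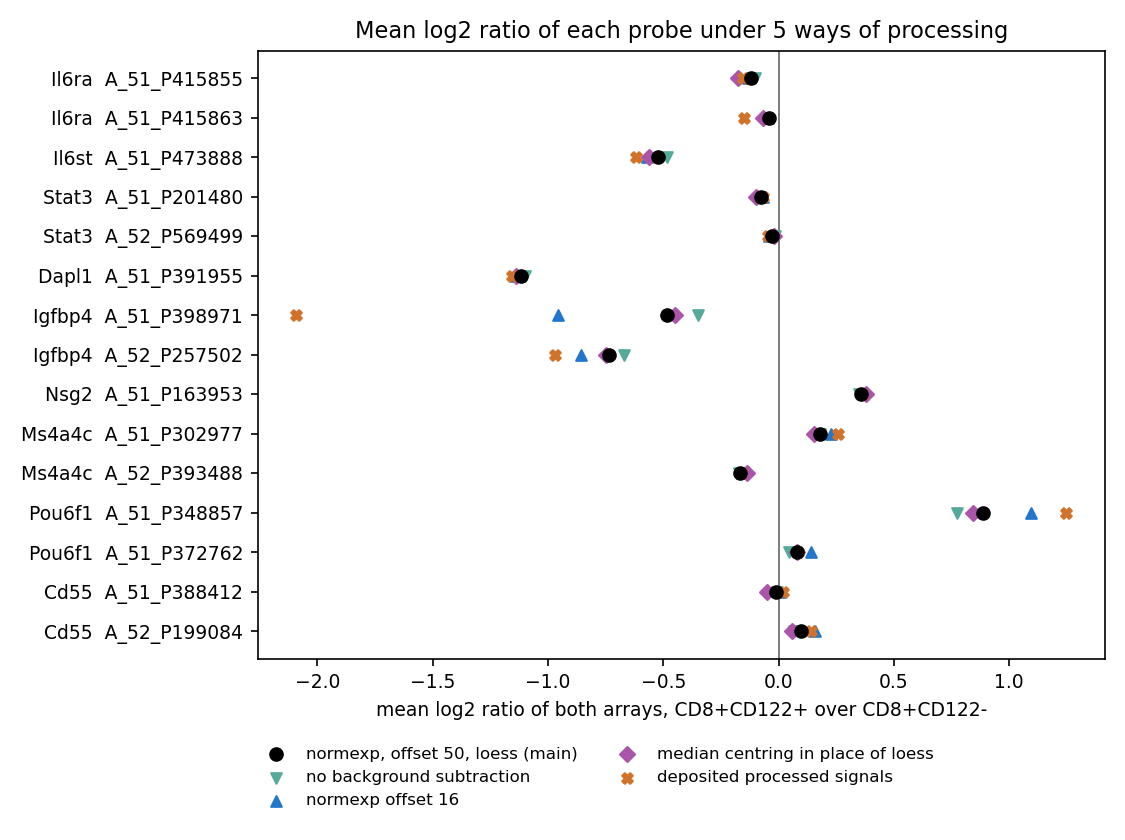
Mean log2 ratio of both arrays (horizontal axis) for each of the 15 kept probes (rows) under 5 ways of processing the same spots, given by the marker shape. Markers lie close together for most probes and spread most for the Igfbp4 probe A_51_P398971 (-0.35 to -2.09) and the Pou6f1 probe A_51_P348857 (0.77 to 1.25).

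The sort was checked on its own gene. Il2rb, which encodes CD122, gave 7346 and 5547 in CD8+CD122+ cells, against 1208 and 1092 in CD8+CD122- cells, 5.56-fold higher in CD8+CD122+ cells, and Cd8b1, the CD8 beta chain, gave 19178 and 23645 in CD8+CD122+ cells, against 26748 and 42933 in CD8+CD122- cells. Of 9 tested CD8 T cell markers, Il2rb included, 2 were positive on both arrays (29.2% of all genes were) and 4 negative on both (24.1% of all). The other 3 had opposite signs. Cd8a was negative on both arrays (-0.31 and -0.91), and Cd5 was positive on both (0.36 and 0.70). Cd4 was near level (0.085 and -0.12). Across all kept probes the 2 arrays correlated weakly (Pearson's r 0.381, Spearman's rho 0.110, points sharing array and dye). With median centring in place of loess r was 0.0072 and rho was -0.386, so that by rank the arrays ran opposite to each other. Of all probes, 69.5% to 83.4% were well above background per channel.

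Markers of other cell types were compared beside these results. None of 8 B cell markers was 2-fold different on both arrays, and their summed signal was 977 and 1093 in CD8+CD122+ cells, against 1013 and 1206 in CD8+CD122- cells. For 6 tested markers of monocytes and macrophages the sums were 903 and 1263 in CD8+CD122+ cells, against 798 and 1156 in CD8+CD122- cells. For 4 natural killer cell markers they were 912 and 953 in CD8+CD122+ cells, against 772 and 867 in CD8+CD122- cells. The largest part of each of these gaps came from a single gene, named here after its values were seen. Cd79b, of the B cell list, gave 291 and 233 in CD8+CD122+ cells, against 335 and 394 in CD8+CD122- cells. Lyz2, a lysozyme of myeloid cells, gave 193 and 368 in CD8+CD122+ cells, against 113 and 293 in CD8+CD122- cells. Klra8, a receptor of natural killer cells, gave 188 and 150 in CD8+CD122+ cells, against 80.4 and 90.7 in CD8+CD122- cells. For 5 dendritic cell markers the sums were 1091 and 1373 in CD8+CD122+ cells, against 815 and 1086 in CD8+CD122- cells. In that list Zbtb46 (1.44 and 1.29) was the 1 gene past 2-fold on both arrays. No marker had a signal of 0, since a spot always has some brightness, and the part of other cell types in the differences above was not tested.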

How the data were processed

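Spot intensity values on a linear scale, flags of 0 or 1 per spot, and log10 ratios of Cy5 over Cy3 with their errors were deposited. They were made with Agilent Feature Extraction (per the submitters' processing notes), in a different version for each array per the file headers. The deposited processed signals are background-subtracted and dye-normalised, per the file headers. The deposited value table holds the same log10 ratios, on both arrays with CD8+CD122- on top, opposite to the direction used here. Each of its columns has a median of 0, and no source used here says whether it was centred, or which genome build the probe positions follow.

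Mean intensities were background-corrected by normexp (offset 50, median local background) and normalised by loess within each array, with control spots at weight 0 and outlier spots left out, in limma 3.58.1 under R 4.3.3. The offset shrinks ratios of dim probes. Log2 ratios were turned to CD8+CD122+ over CD8+CD122- and fitted by lmFit and eBayes (1 residual degree of freedom, two-sided, Benjamini-Hochberg over 30794 probes). Beside it, a rule of size counted probes at least 2-fold different in the same direction on both arrays. The code was tested on simulated data. Probes were named through RefSeq (GRCm38.p6). Named genes are all 9 members with all probes, the list genes past the rule of size or, with none, the 2 highest and 2 lowest of 1 sign, and 13 further genes of the pathways. One gene that this rule names is not reported here. The members and lists were chosen with earlier results of these data known. The number of arrays limits the precision. Alternatives were the processed signals, the value table, no background subtraction, an offset of 16, median centring, outlier spots kept, other filters, each array alone and 1.5-fold.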

Additional observations from a re-analysis of the deposited data

How the results depend on the processing

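The count of probes of the 9 genes at least 2-fold lower on both arrays was 0 and became 1 with the deposited processed signals and with the value table (Igfbp4 A_51_P398971, whose CD8+CD122+ level was not well above background), and 1 at 1.5-fold (Dapl1). With 1 array it ran from 0, without replicate 1, to 2, without replicate 2 (Dapl1 and Igfbp4 A_52_P257502), so array 1 alone carried those 2. The count of probes 2-fold higher was 0, and it became 1 with the processed signals, with the value table and at 1.5-fold (Pou6f1 A_51_P348857), and stayed 0 with either array alone. Limma called 0 of the 15 probes with an intensity trend and with robust eBayes too. Over the related lists, 2 genes were 2-fold higher, against 1 with the stricter filter, which left out Dapk2, 1 with the mean of all kept probes of a gene, which lost Nfil3, and 3 with the processed signals, which added Stc2, not well above background in CD8+CD122- cells. The 3 genes 2-fold lower became 4 with the processed signals, which added Art2b, and 2 with median centring and with the mean of all kept probes. The MS4A family median of 0.0023 became -0.0032 without a filter and with the stricter one, where the number of genes tested differed. With median centring, 1 gene of the IL-6 family list was positive and 3 were negative on both arrays, and 4 and 3 of the JAK and STAT list. For single probes, 45 of 60 values under the processed signals, no background subtraction, the offset of 16 and median centring moved by less than the SD between arrays, and 15 moved by more. That SD is each probe's own, so probes whose arrays differ widely seldom count as moved, and these counts do not measure stability. Each array's ratio pairs both populations, so the limma fit is itself the paired analysis. The 2 arrays and the dim signals of Igfbp4 A_51_P398971 limit what can be told apart.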
